A study of Mus musculus with 6 samples.

Results

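The genes described here encode the integrins, the receptors that hold a cell to its extracellular matrix, and the proteins that gather on their inner side in focal adhesions. Their transcripts were compared between A_212, a line made from hypothalamus of adult mice, and N_46, a line made from that of embryos. Members were all probe sets named for a single gene whose symbol is that of an integrin alpha or beta subunit, or for one of 18 focal adhesion genes (Tln1, Tln2, Vcl, Pxn, Ptk2, Ilk, Parva, Parvb, Zyx, Actn1, Actn4, Fermt2, Bcar1, Tns1, Lims1, Flna, Cav1 and Src). The rule gave 71 of 22690 probe sets, which read 38 of the 12393 genes tested: 22 integrin genes and 16 focal adhesion genes. Tln2 and Ptk2, and the integrin genes Itga1, Itga10, Itga11, Itgad and Itgb8, were not analysed here. Itgbl1, a secreted protein related to integrin beta chains, and the genes of integrin-binding proteins (Itgb1bp1, Itgb1bp2 and Itgb3bp) are not subunits and were not counted as members.

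Both lines had been immortalised with overexpressed SV40 T-antigen, and both are labelled as expressing neuropeptide Y (Npy). Each was grown on 3 plates in DMEM with 5% fetal bovine serum, until the plates were 70% confluent, and the labels name no treatment. Every plate gave 1 array, 6 in all. Each age is represented by 1 line, so age of origin and all else that sets A_212 apart from N_46 cannot be told apart, and p-values reflect plate-to-plate spread, which may be technical. The sources used here give neither the promoter of the T-antigen nor the number of animals behind a line. Deposited log2 values were centred so that the median over the 6 arrays is 0 for every probe set. A value therefore says how far an array lies from the middle of the 6 arrays, and not how strongly a gene was expressed, so neither the presence of a transcript nor that of neuronal markers could be checked. Differences are N_46 minus A_212 in log2 units, positive where N_46 was higher, each with the standard error (SE) that limma gave. Folds assume base 2, a base inferred from the RMA method and stated nowhere in the labels.

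An integrin is a pair of 1 alpha and 1 beta chain that spans the membrane. The alpha chain largely sets which matrix protein is bound, such as laminin, collagen, or proteins that carry the short sequence arginine-glycine-aspartate (RGD), among them fibronectin and vitronectin. Inside the cell, talin and kindlin bind the tail of the beta chain and switch the receptor on, vinculin, alpha-actinin, filamin, tensin and zyxin tie it to actin filaments, and kinases and scaffolds such as Src, paxillin and the ILK complex pass on signals. In the nervous system these receptors serve the attachment and migration of progenitors, the growth of axons and the adhesion of glia to basement membranes.

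Among all genes tested, 39.2% differed between the lines (limma, p-values adjusted by Benjamini-Hochberg over 12393 genes, threshold 0.05), 20.9% higher in N_46 and 18.3% higher in A_212. Of the 38 members, 16 (42.1%) passed, 8 in each direction, a share near that of all genes. The integrin genes held 3 higher in N_46 and 4 higher in A_212 (31.8% of 22), and the focal adhesion genes held 5 and 4 (56.2% of 16). The median difference was 0.04 over the integrin genes, 0.16 over the focal adhesion genes and 0.06 over all genes tested. In absolute size, the median difference was 0.13, 0.34 and 0.17 in the same order. Differences of at least 1 were found for Itga3, Itga8 and Tns1 among the members, and for 5.83% of all genes. For 22 of the 38 members no A_212 value overlapped those of N_46, against 51.1% of all genes. Members are thus described below by gene and by role, and nothing is read from their number of calls.

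**Figure D1:**
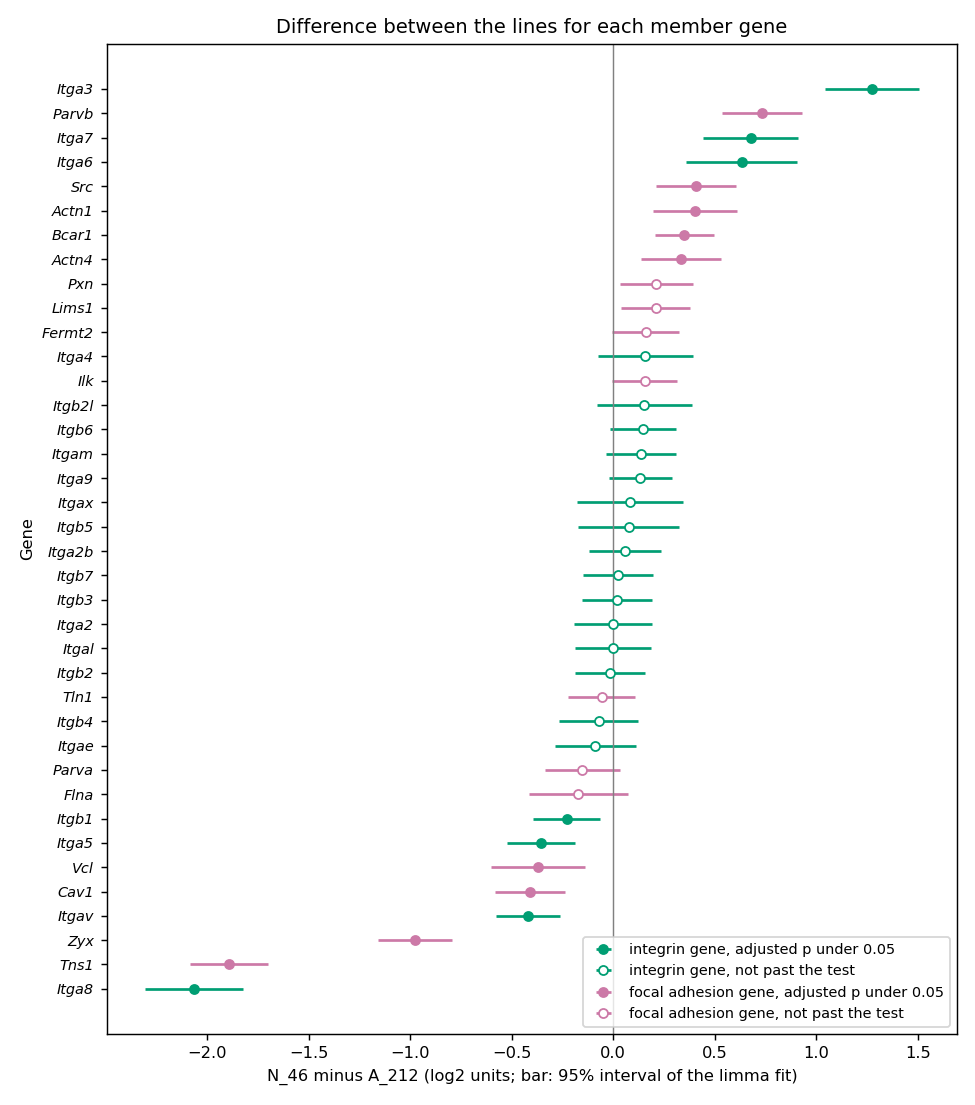
Difference between the lines (N_46 minus A_212, log2 units) for each of the 38 member genes, ordered by size; bars are 95% intervals of the limma fit over 3 plates per line, and filled points have an adjusted p under 0.05. The difference runs from -2.06 for Itga8 to 1.27 for Itga3, and 22 open points lie close to 0.

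The 3 alpha chains grouped here as laminin-binding, Itga3, Itga6 and Itga7, were higher in N_46. They passed the test by 1.27, 0.63 and 0.68, where 20.9% of all genes tested were higher in N_46. The group was drawn with earlier results of these data known, and 3 genes give no result for laminin receptors as a class. Itga3, the alpha chain of a receptor for laminins of epithelia and of the brain surface, had values of -0.51, -0.56 and -0.53 in the A_212 plates and 0.49, 0.90 and 0.84 in the N_46 plates. The A_212 plates lay close together, and N_46 replicate 1 lay below the other N_46 plates but above every A_212 plate. The difference was 1.27 ± 0.10 (SE, n = 3 plates per line, limma adjusted p = 4.5e-06), a 2.42-fold difference, and its 3 probe sets gave 1.11, 1.19 and 1.53. Itga6, a laminin receptor chain carried by neural stem cells, had values of -0.12, -0.57 and -0.64 in A_212 and 0.14, 0.24 and 0.20 in N_46. A_212 replicate 1 lay nearer to the N_46 plates than the other A_212 plates did, without overlap. The difference was 0.63 ± 0.12 (limma adjusted p = 0.0021), and the pair of Itga6 probe sets gave 0.39 and 0.88. Itga7, best known as the laminin receptor chain of muscle, had values of -0.21, -0.57 and -0.30 in A_212 and 0.29, 0.46 and 0.21 in N_46, again with no overlap. Its difference was 0.68 ± 0.10 (limma adjusted p = 0.00047). The 3 genes lie on chromosomes 11 (Itga3), 2 (Itga6) and 10 (Itga7), per the RefSeq gene table.

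Of the 4 alpha chains grouped here as RGD-binding, Itga5, Itga8 and Itgav were higher in A_212, as were 18.3% of all genes tested. Itga2b, the platelet chain, did not pass. Itga8, a receptor chain for nephronectin and fibronectin that marks mesenchyme and smooth muscle, had the largest difference of all members. Its values were 0.84, 1.18 and 1.15 in A_212 and -1.06, -1.12 and -0.84 in N_46, so that every A_212 plate lay far above every N_46 plate. The difference was -2.06 ± 0.11 (limma adjusted p = 1.6e-07), a 4.18-fold difference from a single probe set, and it ranked 213 in absolute size among the 12393 genes. Itgav, the chain of the vitronectin receptors, had values of 0.27, 0.13 and 0.20 in A_212 and -0.24, -0.19 and -0.22 in N_46. The lines did not overlap, and the difference was -0.42 ± 0.07 (limma adjusted p = 0.00080), with probe sets at -0.62, -0.50 and -0.14. Itga5, the chain of the classical fibronectin receptor, had values of 0.18, 0.11 and 0.23 in A_212 and -0.20, -0.09 and -0.27 in N_46. These did not overlap either, and the difference was -0.36 ± 0.08 (limma adjusted p = 0.0035). The platelet chain Itga2b had a difference of 0.057 (95% interval -0.12 to 0.24).

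The promoters of Itga3 and Itga8 are shown because these are the integrin genes with the largest difference in each direction. Each is the 250 bases before the gene's most upstream start in the RefSeq table (GRCm38.p6), with matches to 4 motifs in capitals: the CArG box, the element bound by serum response factor, and, on either strand, the TEAD motif GGAATG, the AP-1 motif TGANTCA and the SP1 motif GGGCGG.
Itga3, chr11:95076715-95076964, minus strand, 5′ to 3′: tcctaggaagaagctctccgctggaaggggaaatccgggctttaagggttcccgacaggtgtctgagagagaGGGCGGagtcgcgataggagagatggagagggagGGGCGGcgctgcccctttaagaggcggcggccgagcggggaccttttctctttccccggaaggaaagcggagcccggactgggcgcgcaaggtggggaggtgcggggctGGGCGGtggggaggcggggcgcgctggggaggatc
Itga8, chr2:12301945-12302194, minus strand, 5′ to 3′: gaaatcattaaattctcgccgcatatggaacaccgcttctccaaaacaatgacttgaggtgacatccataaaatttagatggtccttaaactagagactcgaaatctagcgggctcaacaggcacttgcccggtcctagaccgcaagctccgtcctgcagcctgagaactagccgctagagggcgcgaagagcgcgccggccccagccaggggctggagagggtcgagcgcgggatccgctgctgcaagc
The 3 capital runs of Itga3 are SP1 matches, and the Itga8 stretch holds no match to any of the 4 motifs. Itga3 has 2 annotated starts. The other start, not shown, had an SP1 match beginning 246 bases before it and an AP-1 match after it. GC content was 67.6% in the Itga3 stretch and 56.4% in that of Itga8. The SP1 motif was found in 35.7% of all 32851 promoters of the table and in 55.4% of those of genes on the array, counting 250 bases before and 50 after the start. No promoter of Itga6 or Itga7 was at hand.

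The remaining alpha chains did not pass the test. Itga4 and Itga9, receptors for fibronectin, vascular cell adhesion molecules and tenascin, differed by 0.16 and 0.13 (limma adjusted p = 0.27 and 0.16). Itga2, grouped here as collagen-binding and not with the laminin-binding chains, differed by 0.00022 (95% interval -0.19 to 0.19). The leukocyte chains Itgae, Itgal, Itgam and Itgax had differences from -0.088 (Itgae) to 0.14 (Itgam), with 0 of 4 called by limma and 0 of 4 at an unadjusted p under 0.05. Of 12 leukocyte markers, Cd68 passed (0.28), a share of 8.33% against 39.2% of all genes tested. Ptprc, the pan-leukocyte antigen, had a difference of 0.27 (limma adjusted p = 0.10). The mean over the list ranged from -0.11 to -0.01 in A_212 and from 0.02 to 0.07 in N_46. The median difference was 0.09 over the list and 0.06 over all genes tested. Whether these genes were expressed at all cannot be read from centred values.

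Beta chains differed little. Itgb1, the partner of most alpha chains in this list, including Itga3, Itga5, Itga6, Itga7, Itga8 and Itgav, had values of 0.19, 0.05 and 0.13 in A_212 and -0.11, -0.03 and -0.17 in N_46. The lines did not overlap, and they lay nearest at replicate 2 of each. The difference was -0.23 ± 0.07 (limma adjusted p = 0.031), a 1.17-fold difference, and 5 of its 6 probe sets were negative, from -0.36 to -0.16, with the other at 0.01. This call was lost without A_212 replicate 1 (-0.20, adjusted p = 0.10), A_212 replicate 3 (-0.23, 0.051), N_46 replicate 1 (-0.23, 0.063) or N_46 replicate 3 (-0.20, 0.14), and with plain probe sets alone (-0.17, 0.13). Itgb4, which pairs with the Itga6 chain in hemidesmosomes, differed by -0.071 (95% interval -0.27 to 0.12). Itgb3, Itgb5 and Itgb6, which pair with the Itgav chain, differed by 0.018, 0.075 and 0.15, and the leukocyte chains Itgb2 and Itgb7 by -0.016 and 0.025. Itgb2l, a relative of Itgb2, differed by 0.15 (limma adjusted p = 0.28), and it passed without A_212 replicate 3 (0.27, adjusted p = 0.031). The difference of Itgb3 turned negative when array medians were made equal (-0.019), as did that of Itgb7 (-0.013).

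**Figure D2:**
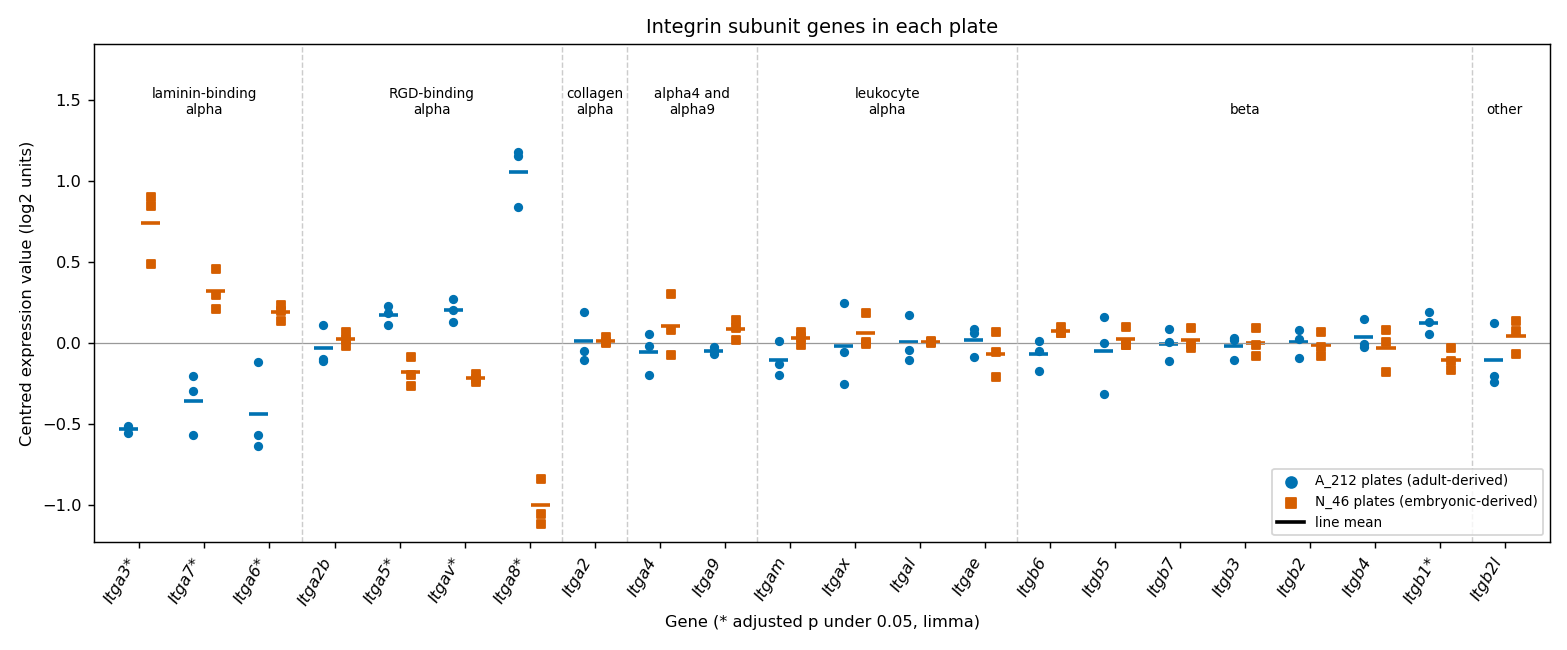
Centred log2 value of each of the 22 integrin genes in the 3 A_212 plates (circles) and the 3 N_46 plates (squares), grouped by what the chain binds, with horizontal bars at the line means; an asterisk marks an adjusted p under 0.05. Squares lie above circles for Itga3, Itga6 and Itga7 and below them for Itga5, Itga8, Itgav and Itgb1.

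Of 8 measured genes that link integrins to actin, Actn1 and Actn4 were higher in N_46, and Tns1, Zyx and Vcl were higher in A_212. Tln1, Fermt2 and Flna did not pass. The share called in this group of 8 was 62.5%, against 39.2% of all genes tested. Tns1 (tensin 1), an adaptor that binds beta chain tails and actin in the long, mature adhesions of fibroblasts, had values of 1.14, 0.87 and 0.94 in A_212 and -0.87, -0.86 and -1.0 in N_46. All A_212 plates lay above all N_46 plates by more than any spread within a line. The difference was -1.89 ± 0.09 (limma adjusted p = 5.2e-08), a 3.71-fold difference, and both probe sets gave -1.89. Zyx (zyxin), which moves to adhesions and stress fibres under tension, had values of 0.45, 0.43 and 0.36 in A_212 and -0.53, -0.45 and -0.71 in N_46. The lines did not overlap, and the difference was -0.98 ± 0.08 (limma adjusted p = 5.5e-06), a 1.97-fold difference. Its probe sets differed in size, at -1.44 for a plain probe set and -0.52 for one whose design may also detect related transcripts.

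Vcl (vinculin), which reinforces the bond between talin and actin, had values of 0.38, 0.06 and 0.07 in A_212 and -0.29, -0.04 and -0.27 in N_46. A_212 replicate 1 stood above its line and N_46 replicate 2 stood nearest to A_212. The difference was -0.37 ± 0.10 (limma adjusted p = 0.017), and the call was lost without A_212 replicate 1 (-0.26, adjusted p = 0.059), N_46 replicate 1 (-0.32, 0.056) or N_46 replicate 3 (-0.34, 0.059). The alpha-actinins, which cross-link actin filaments, differed in the opposite direction. Values of Actn1 were -0.09, -0.30 and -0.33 in A_212 and 0.31, 0.09 and 0.09 in N_46, a difference of 0.40 ± 0.09 (limma adjusted p = 0.0057) that all 3 probe sets shared. Values of Actn4 were -0.05, -0.23 and -0.31 in A_212 and 0.25, 0.11 and 0.05 in N_46, a difference of 0.33 ± 0.09 (limma adjusted p = 0.012). In both alpha-actinin genes replicate 1 was the highest plate of each line, and the lines did not overlap.

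Talin 1 (Tln1), the adaptor that activates integrins, had values of 0.12, 0.04 and -0.06 in A_212 and -0.04, 0.01 and -0.04 in N_46. The lines overlapped, and the difference was -0.056 ± 0.074 (95% interval -0.22 to 0.11, limma adjusted p = 0.58), with probe sets of opposite sign at 0.07 and -0.19. Fermt2 (kindlin 2), the coactivator of talin, differed by 0.16 (95% interval -0.0045 to 0.33, adjusted p = 0.12), and the actin cross-linker filamin A (Flna) by -0.17 (-0.42 to 0.07, adjusted p = 0.25). These intervals do not reach a difference of 0.5 in either direction, and the same held for all 22 members that did not pass.

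Promoters of Tns1, Zyx and Vcl are shown as those of the actin-linking genes that were higher in A_212, with the same build, length and capitals as above.
Tns1, chr1:74124549-74124798, minus strand, 5′ to 3′: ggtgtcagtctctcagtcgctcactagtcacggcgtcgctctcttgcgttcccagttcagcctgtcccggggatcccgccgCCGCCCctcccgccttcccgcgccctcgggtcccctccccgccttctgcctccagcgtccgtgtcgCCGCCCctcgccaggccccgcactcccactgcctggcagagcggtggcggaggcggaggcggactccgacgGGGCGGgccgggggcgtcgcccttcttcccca
Zyx, chr6:42349578-42349827, plus strand, 5′ to 3′: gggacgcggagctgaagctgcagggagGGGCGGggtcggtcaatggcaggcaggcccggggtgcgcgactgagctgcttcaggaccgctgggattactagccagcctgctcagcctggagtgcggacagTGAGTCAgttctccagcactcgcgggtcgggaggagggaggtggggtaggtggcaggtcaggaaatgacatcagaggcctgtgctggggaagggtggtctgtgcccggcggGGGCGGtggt
Vcl, chr14:20929148-20929397, plus strand, 5′ to 3′: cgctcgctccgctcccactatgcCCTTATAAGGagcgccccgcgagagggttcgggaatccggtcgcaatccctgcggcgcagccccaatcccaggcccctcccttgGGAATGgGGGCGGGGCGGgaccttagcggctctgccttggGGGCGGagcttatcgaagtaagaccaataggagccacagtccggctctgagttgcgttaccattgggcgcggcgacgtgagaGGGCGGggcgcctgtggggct
The capitals in Tns1 are 3 SP1 matches. Zyx holds 2 SP1 matches and, starting 121 bases before the start, an AP-1 match. Vcl holds a CArG box starting 227 bases before the start, a TEAD match and 4 SP1 matches, of which 2 overlap. The CArG box, searched as CC, 6 bases of A or T, then GG, was found in 1.63% of all promoters of the table and in 1.47% of those of genes on the array. Among 36 promoters of 29 member genes, 3 held it, those of Vcl, Fermt2 and Itgb6, and of these only Vcl passed the test between the lines. The AP-1 motif was found in 7.81% of all promoters, 6.45% of those of genes on the array and 5 of the 36 of members. In the same order, the TEAD motif was found in 14.7%, 13.1% and 4, and the SP1 motif in 35.7%, 55.4% and 23. A match in these letters is a description of the sequence and does not show that a factor binds there.

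Among the 7 kinase and scaffold genes measured, Parvb, Src and Bcar1 were higher in N_46, and Pxn, Ilk, Lims1 and Parva did not pass. The share called was 42.9%, against 39.2% of all genes tested. Parvb (beta-parvin), which joins ILK to actin, had values of -0.27, -0.53 and -0.30 in A_212 and 0.27, 0.44 and 0.38 in N_46. There was no overlap, and the difference was 0.73 ± 0.09 (limma adjusted p = 8.5e-05), a 1.66-fold difference. Its close relative Parva (alpha-parvin) had a difference of -0.15 (95% interval -0.34 to 0.03, limma adjusted p = 0.18), with probe sets at -0.26 and -0.04. Src, the tyrosine kinase that joins focal adhesion kinase at adhesions, had values of -0.09, -0.23 and -0.15 in A_212 and 0.09, 0.39 and 0.28 in N_46. The lines did not overlap, N_46 replicate 1 lying nearest to A_212, and the difference was 0.41 ± 0.09 (limma adjusted p = 0.0041). Bcar1 (p130Cas), a Src substrate that is stretched by force, had values of -0.19, -0.17 and -0.17 in A_212 and 0.19, 0.20 and 0.14 in N_46. The SD between plates was 0.012 in A_212 and 0.032 in N_46, and the difference was 0.35 ± 0.07 (limma adjusted p = 0.0017).

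The complex of ILK, PINCH and parvin sits on beta chain tails, and its other measured members differed less between the lines than Parvb did. Ilk had values of -0.07, -0.02 and -0.15 in A_212 and 0.02, 0.13 and 0.06 in N_46, a difference of 0.15 ± 0.07 that did not pass (limma adjusted p = 0.12) although the lines did not overlap. Lims1 (PINCH1) differed by 0.21 (limma adjusted p = 0.051), and it passed without A_212 replicate 1 (0.25, adjusted p = 0.047), with array weights (0.19, 0.047) and with a variance trend (0.21, 0.023). Paxillin (Pxn), the scaffold of early adhesions, differed by 0.21 (limma adjusted p = 0.063), and it passed without N_46 replicate 1 (0.29, adjusted p = 0.016), with array weights (0.25, 0.017) and with the median of its probe sets (0.23, 0.044).

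Caveolin 1 (Cav1), the coat protein of caveolae that is also found at adhesions, was higher in A_212. Its values were 0.13, 0.16 and 0.16 in A_212 and -0.13, -0.29 and -0.35 in N_46, with no overlap. The difference was -0.41 ± 0.08 (limma adjusted p = 0.0016).

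**Figure D3:**
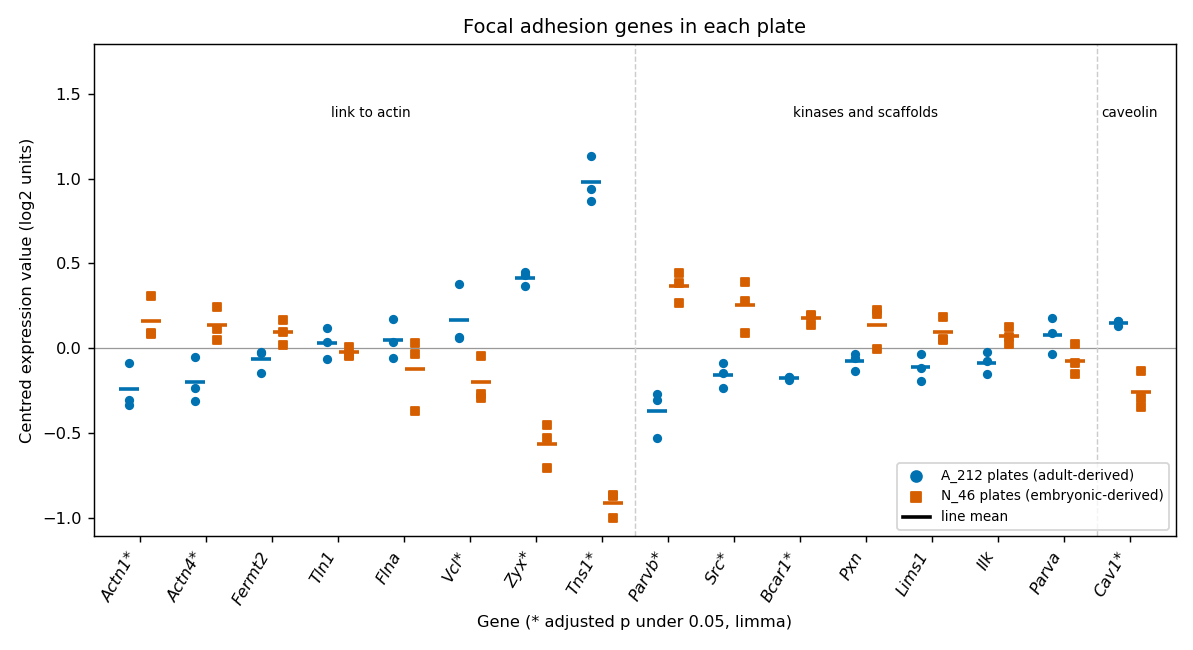
Centred log2 value of each of the 16 focal adhesion genes in the 3 A_212 plates (circles) and the 3 N_46 plates (squares), grouped by role, with horizontal bars at the line means; an asterisk marks an adjusted p under 0.05. Tns1 and Zyx show the widest gap with circles above squares, and Parvb the widest with squares above circles.

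Single probe sets gave a similar account. Of the 71 probe sets, 32 passed the test when each was adjusted over 20380 probe sets, of which 37.4% passed. For 20 members with several probe sets, the probe sets shared their sign in all but Itgb1 and Tln1. Of the 71, 26 carry a suffix that marks possible detection of related transcripts.

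**Figure D4:**
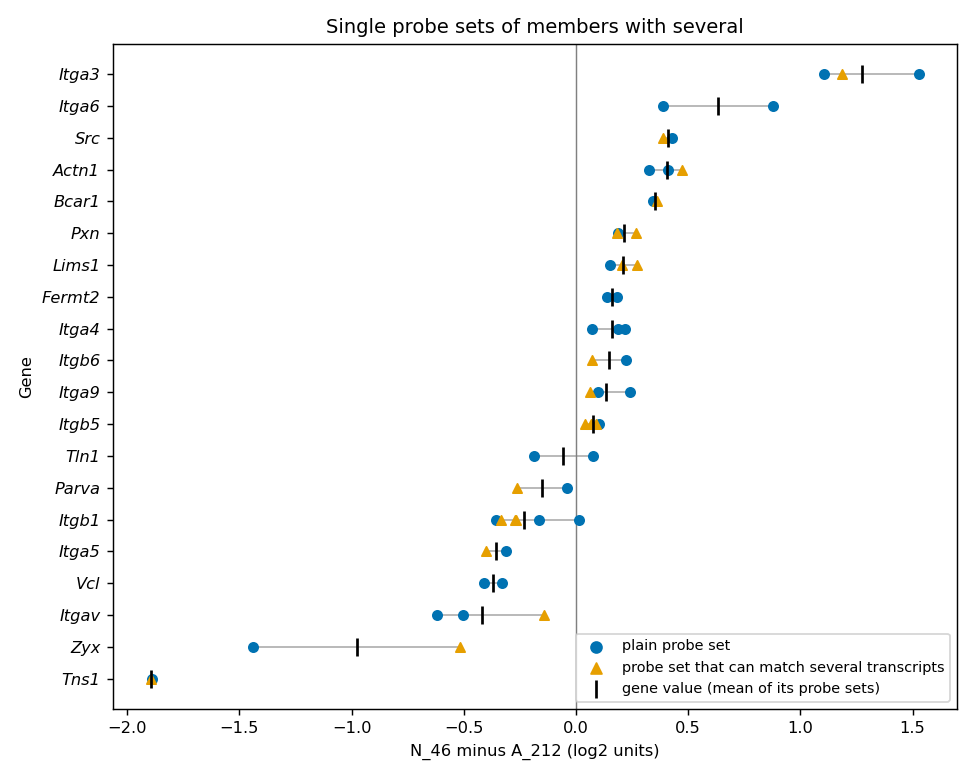
Difference between the lines (N_46 minus A_212, log2 units) for each probe set of the 20 member genes that have several, with plain probe sets as circles, those that may detect related transcripts as triangles, and the gene's mean as a vertical tick. Probe sets of Tns1 coincide at -1.89, those of Zyx lie apart at -1.44 and -0.52, and those of Tln1 fall on both sides of 0.

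Other genes of the same pathway were taken as lists. Of 41 other focal adhesion adaptors and regulators measured, 10 were called in each direction and 21 were not called, a share of 48.8% against 39.2% of all genes tested. Tgfb1i1 (Hic-5), a relative of paxillin (-1.28), the focal adhesion kinase relative Ptk2b (-1.22) and Kank2 (-1.03) were the largest higher in A_212, and the zyxin relative Ajuba (0.77), the phosphatase gene Ptpn12 (0.65) and Enah, which promotes actin growth (0.59), the largest higher in N_46. The zyxin relative Lpp (-0.88) went with Zyx, whereas Trip6 (0.26) and Limd1 (0.56), of the same family, went with Ajuba. The median difference over the list was -0.02.

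Of 17 integrin-associated membrane proteins, 14 passed, 7 in each direction. Plaur, the urokinase receptor (1.57), Cd151, the tetraspanin known to bind laminin-binding integrins (0.65), and the syndecan gene Sdc4 (0.63) were higher in N_46. The collagen receptor Ddr2 (-1.0), the tetraspanin gene Cd82 (-0.84) and Sdc2 (-0.43) were higher in A_212. The share of called genes was 82.4%, against 39.2% of all genes tested, with differences of both signs and a median of 0.10.

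Ligands of integrins differed in both directions: of 31 measured, 8 were higher in N_46, 14 in A_212 and 9 did not pass, with a median of 0.02. The share called was 71.0%, against 39.2% of all genes tested, of which 20.9% were higher in N_46 and 18.3% in A_212. Among laminins, Lama5, a chain of laminins that the Itga3 and Itga6 receptors bind, was higher in N_46 (1.20). Lama2, the laminin chain of muscle and nerve that the Itga7 receptor binds, was higher in A_212 (-3.66). Lama4 (-0.72) and Lamc1 (-0.22) were also higher in A_212, and Lama1 (-0.0085) and Lamb1 (0.20) did not pass. Nephronectin (Npnt), the ligand of the Itga8 receptor, was higher in A_212 (-0.98), as Itga8 was. Of the RGD proteins named above, fibronectin (Fn1) differed by 0.44 ± 0.17 and did not pass (limma adjusted p = 0.060), and vitronectin (Vtn) differed by 0.023. Other ligands were not sorted by whether they carry RGD. The largest differences otherwise were those of Ccn2 (2.93) and Ccn1 (2.18), matricellular ligands higher in N_46, and of Icam1 (-1.91) and Emilin1 (-1.80), higher in A_212.

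Caveolar genes completed the lists. Of 6 caveolar genes, Cavin2 (-3.89) and Ehd2 (-0.47) were higher in A_212, as Cav1 was, and Cav2 (0.11), Cav3 (0.18), Cavin1 (-0.14) and Cavin3 (-0.13) did not pass. The share called was 33.3%, below the 39.2% of all genes tested.

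**Figure D5:**
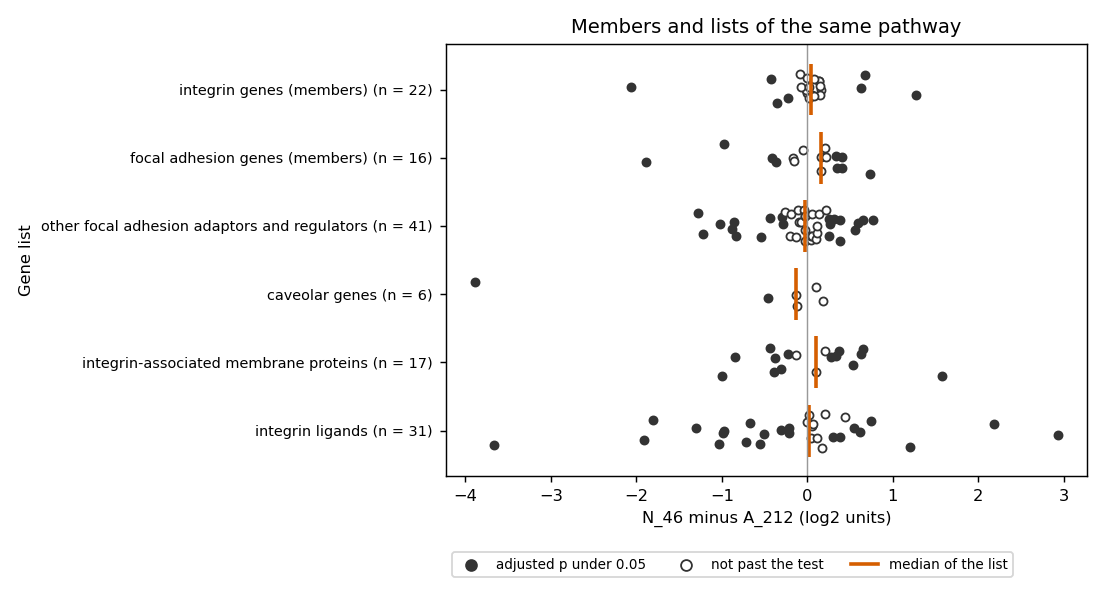
Difference between the lines (N_46 minus A_212, log2 units) for every measured gene of the member groups and of 4 lists of the same pathway, with filled points for an adjusted p under 0.05 and a vertical bar at each list's median. Medians lie between -0.13 for caveolar genes and 0.16 for focal adhesion genes, and single genes reach -3.89 (Cavin2) and 2.93 (Ccn2).

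Markers of other cell types differed between the same plates. Fibroblast and mesenchymal markers numbered 12, of which 8 passed with higher values in A_212, led by Mmp2 (-5.26) and Col3a1 (-3.59), a share of 66.7% against 18.3% of all genes. The collagen gene Col1a2 of that list was higher in A_212 (-0.50), whereas Col1a1, its partner chain in type I collagen, which stands in the ligand list, was higher in N_46 (0.55). The mean over the fibroblast and mesenchymal list ranged from 0.58 to 0.71 in the A_212 plates and from -0.68 to -0.58 in the N_46 plates. Of 6 smooth muscle markers, 4 (66.7%) were higher in A_212 (Actg2 -4.17, Cnn1 -2.65, Tagln -2.23 and Acta2 -0.41), with list means from 0.61 to 0.74 and from -1.02 to -0.66. Of 12 neuron markers, Stmn2 (-3.09) and Tubb3 (-1.13) were higher in A_212 and Map2 (0.25) in N_46. These are 25% of the list, against 39.2% of all genes tested, and the other 9 were not called. List means ran from 0.12 to 0.16 in A_212 and from -0.20 to -0.11 in N_46, with Stmn2 and Tubb3 the largest differences. The median difference over the list was 0.06, as over all genes tested. Npy itself differed by 0.051 (limma adjusted p = 0.67). Which of these markers are at or near 0 cannot be read from centred values, and their part in the results was not tested. In RNA of a whole plate, fewer cells of a type and less RNA per cell cannot be told apart.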

How the data were processed

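RNA of 6 plates, 3 of A_212 and 3 of N_46, was measured on an Affymetrix mouse array, from 5 µg of total RNA per the labels' protocols. The authors deposited log2 values that the submitters' processing notes ascribe to RMA, version not given. RMA as usually run gives every array the same distribution, and a line with more RNA per cell would then look no different. The values are also centred per probe set, a step not described in the sources used here, and no array holds an expression level, so no filter on low values was possible. The log base is inferred.

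Gene names came from GEO's platform annotation. Those with several genes (691), no gene (1555) or a control function (64) were left out. A gene's value was the mean of its probe sets (12393 genes from 20380 probe sets). limma 3.58.1 (lmFit, eBayes, two-sided) in R 4.3.3 compared the lines over all genes, with Benjamini-Hochberg adjustment and a threshold of 0.05, after tests on simulated data. A RefSeq gene table (GRCm38.p6) held all 38 members and gave their chromosomes, and 29 had a promoter in a RefSeq table of that build. Protein sequences were not used here. A further gene list is not reported here.

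The members, role groups, lists and motifs were chosen with earlier results of these data known, and the promoters printed were chosen after the values were seen. Every member is named. Values per plate are given for called members with a difference of at least 1, the 2 largest called each way per role, and Itgb1, Itgav, Itga5, Tln1, Vcl, Ilk and Src whatever their result. Those of Itga6 and Bcar1 were added after their values were seen. Lists name up to 3 largest calls each way, and genes named beyond those were chosen after seeing values. Alternatives were array scaling, leaving out each array, a replicate block, weights per array, other uses of probe sets, a variance trend and a 2-fold bound. Same-numbered plates were not paired: correlations of their deviations from the line means were -0.03, -0.01 and 0.09 for replicates 1, 2 and 3. Arrays of a line correlated, across genes, with r from 0.80 to 0.92, and N_46 replicate 1 with the other N_46 arrays at 0.82 and 0.83. Python 3.11.15, pandas 2.3.3, numpy 2.4.6 and matplotlib 3.10.9 drew the figures and searched motifs.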

Additional observations from a re-analysis of the deposited data

How the results depend on the processing

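Besides the 2-fold bound, up to 13 alternatives were run per member gene. Of the 16 called members, 14 kept their direction and call in all that could be run for them. Itgb1 and Vcl kept their direction but lost the call in those named above. For the called genes Itga7, Cav1 and Actn4, plain probe sets could not be tried. The only probe set of each may also detect related transcripts. Of the 22 others, 19 passed in none, and Lims1, Pxn and Itgb2l passed in some. Tested against a 2-fold bound (limma treat), calls fell to 1 integrin gene (Itga8) and 1 focal adhesion gene (Tns1) higher in A_212 and to 0 of each higher in N_46, where an unadjusted p under 0.05 was found for 1 integrin gene (Itga3) and 0 focal adhesion genes. Over all genes that bound left 268 higher in A_212 and 138 in N_46. With a replicate block the counts were 4 and 3 integrin genes and 4 and 5 focal adhesion genes higher in A_212 and N_46, the same as without it. With Itgbl1 counted, an alternative added after the data were seen, 5 integrin genes were higher in A_212.

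The sign turned for 8 members, none of them called. Setting arrays to the same median gave -0.037 for Itga2, -0.019 for Itgb3 and -0.013 for Itgb7, and the same 75th percentile gave -0.018 for Itga2 and -0.00012 for Itgb3. Array weights gave 0.030 for Itgal and 0.0053 for Itgb4. Leaving out 1 array gave -0.058 to 0.089 for Itga2, -0.059 to 0.080 for Itgal, -0.033 to 0.22 for Itgax, -0.064 to 0.022 for Itgb2, -0.028 to 0.058 for Itgb3, -0.13 to 0.0030 for Itgb4, -0.058 to 0.18 for Itgb5 and -0.027 to 0.072 for Itgb7. The largest shift of the median of all genes under a scaling was -0.0374, with array medians made equal. The number of arrays limits the precision, and signal over background is not known from centred values.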

Other observations

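Genes with integrin-like names that are not subunits differed too. Itgbl1, a secreted protein with repeats like those of integrin beta chains, was higher in A_212, with values of 1.62, 2.03 and 1.75 in A_212 and -1.62, -1.76 and -1.93 in N_46. The difference of Itgbl1 was -3.57 ± 0.11 (limma adjusted p = 4.2e-09) from a single probe set, and it ranked 54 in absolute size among 12393 genes. Itgb3bp, a centromere protein named for its binding to the Itgb3 tail, was higher in A_212 by a difference of -0.46 ± 0.10 (limma adjusted p = 0.0035). Itgb1bp1, which competes with talin for the Itgb1 tail, and the muscle gene Itgb1bp2 differed by 0.11 and 0.16 and did not pass (limma adjusted p = 0.30 and 0.22).

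Other marker lists held 1 call each, beside 39.2% of all genes. Of 6 platelet markers, Gp1bb passed (-0.97), of 9 epithelial markers Krt19 (-1.01), and of 7 endothelial markers Tek (-0.70), each higher in A_212.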
